A study of Mus musculus with 2 samples.

Results

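Mouse microRNAs were numbered roughly in the order of their discovery, so a high number marks a hairpin that was described late. The late-named hairpins described here are those whose symbol is Mir followed by a number of 1000 or more and whose counts summed to 3 or more over both libraries. They were thus chosen by their measured counts, and abundance is given as a description. GENCODE M21 annotates 649 late-named hairpins, of which 3 in the Dlk1-Dio3 cluster were left out by position. Of the other 646, 162 (25.1%) met the count minimum, out of 2202 annotated hairpins in all.

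Heart tissue was taken at 25 days of age from 2 females of B6CASTF1/J, the first-generation cross of C57BL/6J with CAST/EiJ, supplied by The Jackson Laboratory. No treatment or transgene is named, and no second group was analysed here. The animals are numbered separately in the labels as biological replicates 1 and 2, but both carry the same donor identifier, and a free-text label gives the age in another unit. If they are not separate animals, the spread between replicates would be technical. The libraries held 2050498 hairpin counts in replicate 1 and 2661090 in replicate 2, and 38.5% and 41.6% of their reads matched several places and entered no hairpin count. The heart muscle hairpins Mir208a (3322 and 15598 counts in replicates 1 and 2), Mir499 (5391 and 6167) and Mir208b (391 and 297) were present in both. Of the neuronal hairpins, Mir124a-1, Mir124a-2, Mir124a-3, Mir9-1 and Mir9-2 stood at 0 in both libraries, and Mir9-3 had 2 counts in replicate 1 and 0 in replicate 2.

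A microRNA is usually cut from a folded hairpin, first in the nucleus by Drosha with its partner Dgcr8 and then in the cytoplasm by Dicer, and its seed, the bases near its 5′ end, directs the Argonaute complex to target transcripts. Some late-described hairpins reach Dicer by another route. In a mirtron, splicing frees a short intron whose ends are the ends of the hairpin, and in a tailed mirtron only one hairpin end is a splice site. Other small RNAs are cut from snoRNAs, which guide chemical modification of ribosomal RNA, or from their relatives in Cajal bodies, the scaRNAs, which guide modification of spliceosomal RNAs.

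Mature sequences were found in the RefSeq microRNA table (GRCm38.p6) for 149 of the 162 hairpins, and 13 had no entry there. Shown first are arms of 4 of the 5 hairpins with the highest counts, because they hold the most reads of the set. They are written 5′ to 3′ with the seed, bases 2 to 8, in capitals. The deposited counts do not separate the arms of a hairpin.
miR-1839-5p: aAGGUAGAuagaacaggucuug
miR-1306-5p: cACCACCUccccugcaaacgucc
miR-1306-3p: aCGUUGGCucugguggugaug
miR-1843a-5p: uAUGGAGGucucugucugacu
miR-1843b-5p: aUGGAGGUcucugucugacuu

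The 5p sequences of Mir1843a and Mir1843b share a run of 20 bases, but that run starts at a different position in each, so their seeds, AUGGAGG and UGGAGGU, are read from shifted frames. Sequence sharing of this kind was uncommon among the late-named hairpins. Only 7 of 162 (4.32%) held 20 or more bases in common with another hairpin, against 82 of 298 (27.5%) of the hairpins numbered under 1000 or named let-7 that met the same count minimum. Those 298 are called the earlier-named hairpins below. None of them was left out by position, so any in the Sfmbt2 gene or the Dlk1-Dio3 cluster stayed in.

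The second set of sequences comes from hairpins that begin or end at a splice site. An intron normally begins with GU and ends with AG after a pyrimidine-rich stretch, and the capitals here mark those splice-site letters where a mature sequence holds them. The first 4 come from hairpins that fill a whole intron, and the last 4 from hairpins whose 3′ end lies within 10 bases of an intron's 3′ end.
miR-3102-5p: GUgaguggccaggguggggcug
miR-1981-5p: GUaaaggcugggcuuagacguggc
miR-7018-3p: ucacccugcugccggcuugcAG
miR-7068-3p: ucacccuggacugacucucAG
miR-3097-3p: cucagaccuuucuaccugucAG
miR-3100-3p: cugugacacacccgcucccAG
miR-3076-3p: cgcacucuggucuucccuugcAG
miR-6990-3p: agcccugccucuuccuggcAG

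A seed of a late-named hairpin recurred in the RefSeq table for 43 of the matched hairpins. The seed UGAGUGG of miR-3102-5p is also that of miR-702-5p, whose hairpin Mir702 lies at an intron end as well. The seed CACCCUG is common to miR-7018-3p, miR-7068-3p and miR-7023-3p. For miR-1983 the seed UCACCUG is also that of miR-412-3p.

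The late-named hairpins contributed little of the heart's assigned microRNA reads. They held 5742 of the hairpin counts in replicate 1, or 0.280% (95% Wilson interval 0.273 to 0.287%), and 4360 in replicate 2, or 0.164% (0.159 to 0.169%), a mean of 0.222% ± 0.0822 (SD, n = 2; later ± values are likewise SD over both libraries). The intervals of the libraries do not overlap, but they cover counting error only, since PCR copies were not told apart. In bulk tissue, fewer cells of a type and less RNA per cell cannot be told apart.

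Most of these hairpins sat near the limit of detection. Their median was 1.54 CPM (the count scaled by the library's hairpin total), against 84.3 CPM for the earlier-named hairpins that met the same minimum. For scale, 3 counts correspond to 1.46 CPM (replicate 1) and 1.13 CPM (replicate 2). Of the 162, 95 had a sum of 3 to 9 counts over both libraries, 51 a sum of 10 to 99, and 16 a sum of 100 or more. Exactly 14 stood at 0 in one library, and 37 had 10 or more counts in each. Of 525 earlier-named hairpins, 298 (56.8%) had a sum of 3 or more and 245 had 10 or more counts in each library. At the threshold, 23 hairpins had a sum of 3, among them Mir1188, Mir3075 and Mir3079, and 44 just outside had a sum of 2, among them Mir1224, Mir1668 and Mir1893. A further 370 late-named hairpins had no count in either library.

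The numbering did not run evenly with abundance. Hairpins numbered 1000 to 1999 gave 30 of the 162 from 84 considered, and they held 66.0% of the counts. Numbers 3000 to 3999 gave 28 of 88 with 15.6% of the counts, and 5000 to 5999 gave 23 of 51 with 5.79%. Numbers 6000 to 6999 gave 32 of 207 with 6.98%, and 7000 to 7999 gave 43 of 180 with 3.49%. Only 2 of those 43 had 10 or more counts in each library, against 12 of the 30 numbered 1000 to 1999. Numbers 8000 to 8999 gave 6 of 32 with 2.17% of the counts, and none of the 4 numbered 2000 to 2999 met the minimum.

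**Figure D1:**
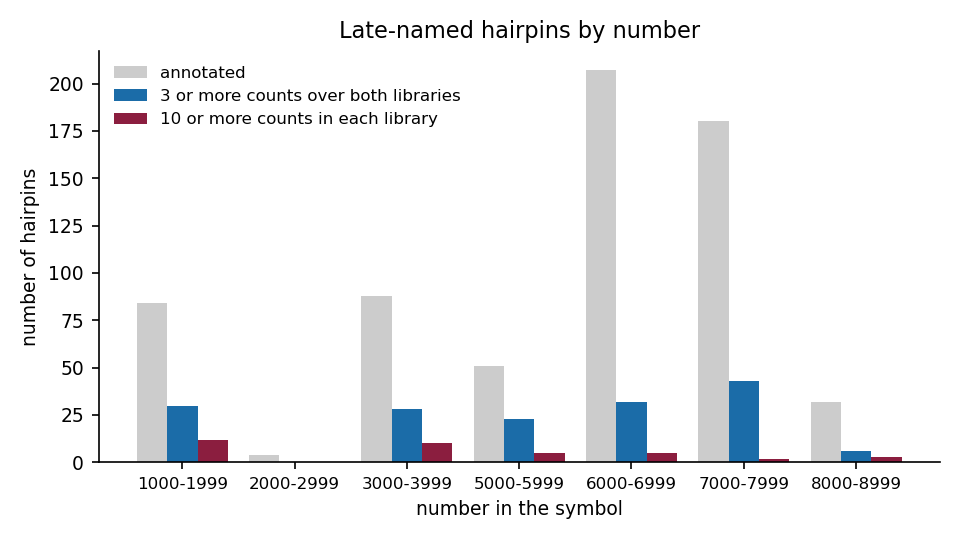
Bars count late-named hairpins in each block of numbers (x axis). Gray bars are all annotated hairpins considered, blue bars those with 3 or more counts over both libraries, and dark red bars those with 10 or more counts in each library. The block 7000 to 7999 falls from 180 annotated to 43 and then 2, and the block 1000 to 1999 from 84 to 30 and then 12.

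A few hairpins held most of the late-named counts. The 15 with the highest mean CPM held 81.5% of these counts in replicate 1 and 76.0% in replicate 2. Mir1839 alone held 38.5% and 26.6% (32.5 ± 8.40%).

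**Figure D2:**
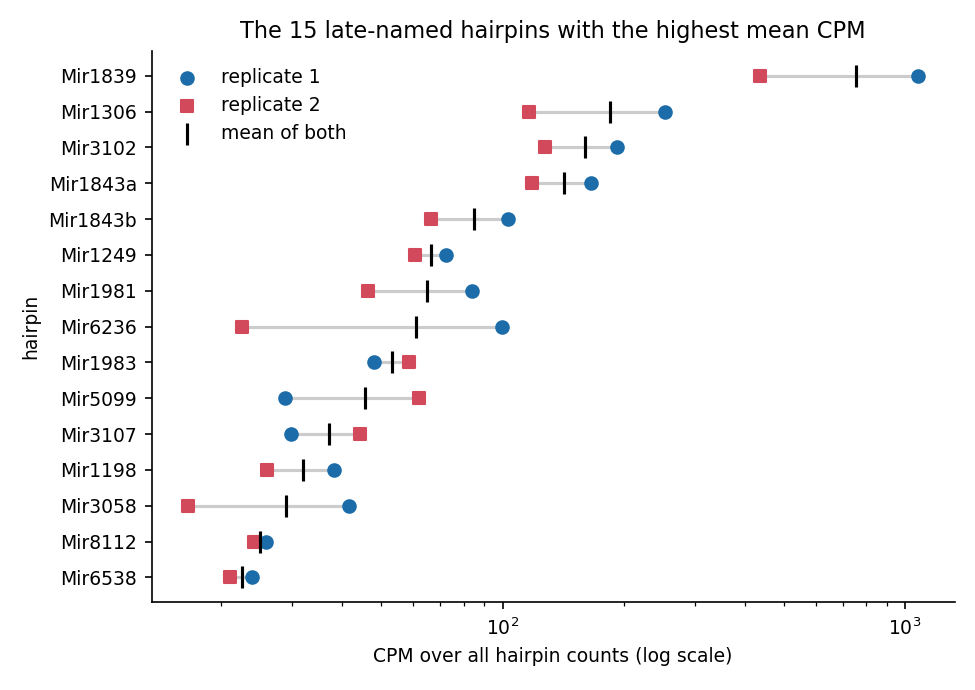
CPM over all hairpin counts (x axis, log scale) for the 15 late-named hairpins with the highest mean CPM (y axis). Blue circles are replicate 1, red squares replicate 2, and vertical ticks their mean. Mir1839 lies above the other 14 in both libraries, and Mir6236 has its libraries furthest apart, at 99.5 and 22.5 CPM.

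The hairpins that overlap a gene annotated as another type of small noncoding RNA were few but held a large part of the counts, most of it in Mir1839. There were 8 of them (4.94% of the 162), and they held 50.3% of the late-named counts in replicate 1 and 40.2% in replicate 2 (45.2 ± 7.14%). Mir1839 alone gave 2210 of their 2887 counts in replicate 1 and 1160 of their 1752 in replicate 2. For Mir1839, Mir3068 and Mir1949 the overlapping gene carries the hairpin's own symbol. Of these 8, 7 had 10 or more counts in each library, against 37 of all 162. Such overlap was found for 0.620% of the late-named hairpins below the count minimum and 0.671% of the earlier-named hairpins above it. The gene types searched included rRNA, snoRNA, snRNA and scaRNA, but of tRNAs only the mitochondrial ones. A hairpin over a nuclear tRNA gene would therefore not enter this class.

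Mir1839, at chr7:81529916-81529988 on the plus strand of mm10, coincides with a scaRNA gene of the same symbol within the noncoding gene 2900076A07Rik. It had 2210 counts (1078 CPM) in replicate 1 and 1160 counts (436 CPM) in replicate 2, and ranked 65 and 82 among all hairpins by count. The level in replicate 1 was the higher one, and both lay above those of every other late-named hairpin.

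Both hairpins of the Mir1843 pair overlap a scaRNA gene. Mir1843a (chr12:80391613-80391677, minus strand) overlaps Scarna3b in an intron of Dcaf5, a substrate receptor gene of ubiquitin ligases, and had 165 and 118 CPM in replicates 1 and 2. Mir1843b (chr1:159340358-159340423, plus strand) overlaps Scarna3a in an intron of Cop1, a ubiquitin ligase gene, and had 103 and 66.5 CPM. Both were higher in replicate 1, and Mir1843a was the higher of the pair in each library. The hairpins share a run of 23 bases, and the whole of miR-1843b-5p also occurs within Scarna3b. Reads matching several places entered no hairpin count, and how many of them belong to this pair was not tested.

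The other hairpins of this class were lower. Mir3068, which coincides with a snoRNA gene of the same symbol in an intron of Alkbh1, had 48 counts in replicate 1 and 41 in replicate 2. Mir5121 overlaps Snord33, a snoRNA gene housed in the ribosomal protein gene Rpl13a, and had 39 and 24 counts. Mir6516 overlaps a scaRNA gene in Snhg20, a snoRNA host gene, and had 25 and 12 counts. These 3 were higher in count in replicate 1, although replicate 2 was the deeper library. Mir1949, which coincides with a snoRNA gene, had 10 and 24 counts. The last of the 8, Mir1291 in Snora34, had 4 counts in replicate 1 and 0 in replicate 2. The tables count reads over each hairpin, so reads from a microRNA and reads from other fragments of the overlapping small RNA cannot be told apart.

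Most late-named hairpins lay within protein-coding genes on the same strand. This held for 139 of 162 (85.8%), against 65.1% of the late-named hairpins below the count minimum and 40.3% of the earlier-named hairpins above it. Of these 139, 92 lay in an intron in all overlapping transcripts of the host, 25 only in exons, and the rest in an exon of one transcript and an intron of another. The 92 (56.8% of the 162) include 5 that also overlap a small RNA gene, Mir1843a and Mir1843b among them. Only 10 (6.17%) were intergenic, against 18.0% and 26.5% in the other sets. The 92 intronic hairpins held 24.2% of the late-named counts in replicate 1 and 29.9% in replicate 2. Without those overlapping small RNA genes, the other 87 held 13.5% and 17.1%.

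**Figure D3:**
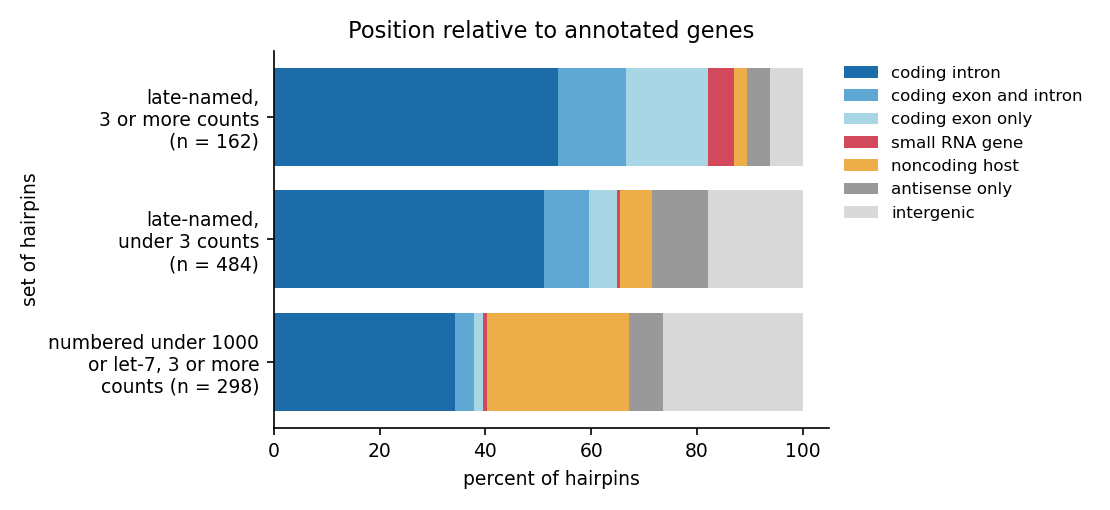
Stacked bars give the percent of hairpins (x axis) in each annotated position for late-named hairpins with 3 or more counts, late-named hairpins with fewer, and earlier-named hairpins with 3 or more counts (y axis). Hairpins overlapping a small RNA gene form a class of their own; without them, coding introns hold 53.7%, 51.0% and 34.2% of the sets, and intergenic hairpins 6.17%, 18.0% and 26.5%.

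Late-named hairpins were also rarely clustered. Only 11 (6.79%) had another annotated hairpin within 10000 bases on the same strand, against 173 (58.1%) of the earlier-named hairpins. The sets are not filtered alike, since only late-named hairpins in the Sfmbt2 gene and part of the Dlk1-Dio3 cluster were left out. On either strand, these numbers were 17 (10.5%) and 181 (60.7%). Their median GC content was 55.8%, above 52.8% for the late-named hairpins below the count minimum and 48.4% for the earlier-named ones. The predicted folding energy per base had medians of -0.44, -0.38 and -0.43 kcal/mol for these sets in the same order. No test was made of these properties, since counts chose the sets.

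The hairpins within exons included the one with the second highest level. Mir1306 (chr16:18284239-18284317, minus strand) lies in coding sequence of Dgcr8, the gene of the Drosha partner named above, and had 520 counts (254 CPM) in replicate 1 and 309 counts (116 CPM) in replicate 2. Mir8112 lies in a 5′ untranslated exon of Krcc1 and had 53 and 64 counts. Mir5113 lies in the 3′ untranslated region of Tnrc6b, which encodes an Argonaute partner in silencing, and had 39 and 12 counts. Of these 3, Mir1306 and Mir5113 had the higher count in replicate 1.

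Hairpins at splice sites made up 68 of the 162 (42.0%), counting any hairpin end within 10 bases of an intron end of a gene on the same strand. The share was 36.6% among late-named hairpins below the count minimum and 1.68% (5 hairpins) among the earlier-named ones above it. In 9 of the 68 both ends of the hairpin lay at intron ends, in 56 only the 3′ end and in 3 only the 5′ end. The 3′ end fell exactly on the last base of an intron in 56 of the 162 (34.6%), against 30.8% and 0.336% in the other sets. Among only those within a spliced gene on the same strand, it was 38.9%, against 44.0% and 0.524%. The order of the late-named sets thus depends on whether hairpins outside such genes are counted.

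**Figure D4:**
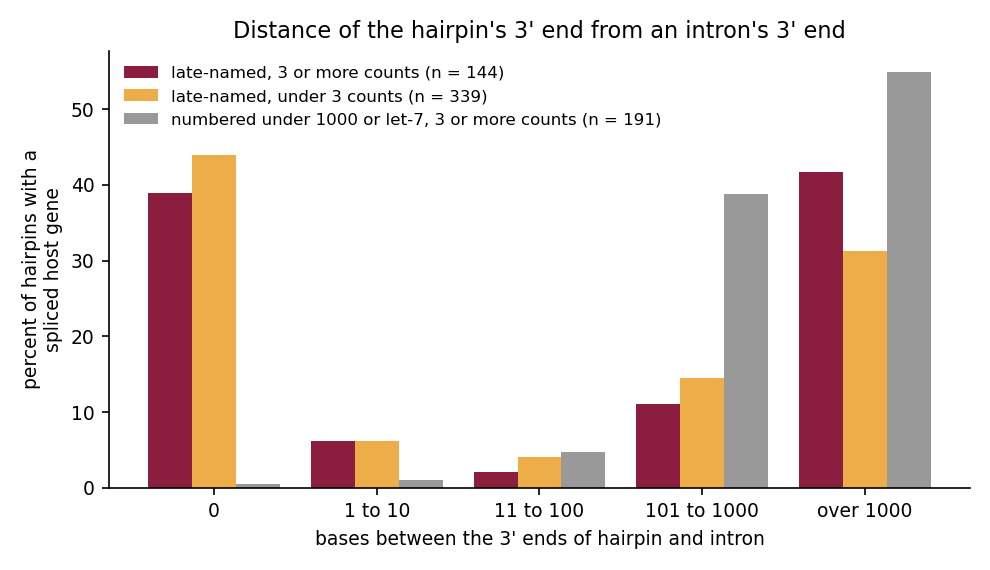
Bars give the percent of hairpins within a spliced gene on the same strand (y axis) by the number of bases between the 3′ end of the hairpin and that of the intron assigned to it (x axis). For late-named hairpins with 3 or more counts (dark red, n = 144), 38.9% stand at 0 bases, for late-named hairpins with fewer counts (orange, n = 339) 44.0%, and for earlier-named hairpins (gray, n = 191) 0.524%.

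The mature sequences followed the annotated positions. Of 58 3p sequences from hairpins with a 3′ end at an intron end, 45 (77.6%) ended in AG, against 7 of 53 (13.2%) 3p sequences of the other late-named hairpins. Their median pyrimidine content was 69.6% (quartiles 66.7 to 72.5%), against 54.5% (45.5 to 68%). Of 10 5p sequences from hairpins with both ends at intron ends, 7 (70%) began with GU, against 1 of 103 (0.971%) of the others. These letters belong to the splice sites that define the position, so the counts are descriptions and were not tested.

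The splice-site hairpins were numerous but mostly scarce. They held 15.5% of the late-named counts in replicate 1 and 17.7% in replicate 2 (16.6 ± 1.53%), and 9 of the 68 had 10 or more counts in each library. The 9 with both ends at intron ends held 10.2% and 11.1% of the late-named counts, and the 56 with only a 3′ end at the splice site held 4.53% and 5.89%. Splice-site hairpins made up 26 of the 32 hairpins numbered 6000 to 6999 and 25 of the 43 numbered 7000 to 7999. They were 3 of the 30 numbered 1000 to 1999, 8 of the 28 numbered 3000 to 3999, 6 of the 23 numbered 5000 to 5999 and 0 of the 6 numbered 8000 to 8999.

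Nearly all the counts of the hairpins with both ends at intron ends came from a pair of them. Mir3102 (chr7:100882306-100882409, minus strand) fills an intron of 104 bases in Arhgef17 and had 394 counts (192 CPM) in replicate 1 and 339 (127 CPM) in replicate 2. Mir1981 (chr1:184822407-184822488, minus strand) fills an intron of 82 bases in Marc2, a mitochondrial amidoxime reductase gene, and had 172 (83.9 CPM) and 123 (46.2 CPM). Both were higher in replicate 1. The other 7 lie in Nav1, Hspg2, Cherp, Oaz1, Dbn1, Baiap3 and Dnase1l1.

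Of the hairpins with only a 3′ end at a splice site, 6 reached 10 counts in each library. Mir3064 lies in Ddx5, an RNA helicase gene, and had 21 counts in replicate 1 and 29 in replicate 2. Mir3097 in Rgs12, a regulator of G protein signaling, had 21 and 14. The other 4 had between 10 and 15 counts in each library. They were Mir3076 in the transketolase gene Tkt, Mir3100 in Dmpk, the kinase gene of myotonic dystrophy, Mir6990 in Esrra, a nuclear receptor gene of energy metabolism, and Mir7051 in Etfb, a subunit gene of the electron transfer flavoprotein. These 4 stood at 3.76 to 5.85 CPM in each library. The median distance from the 5′ end of a hairpin with only a 3′ end at a splice site to the 5′ end of its intron was 378 bases over all 56 (range 11 to 9128).

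Levels of the remaining highest hairpins overlapped in part. Mir1249 in 5031439G07Rik had 72.2 and 60.5 CPM (66.3 ± 8.26), Mir1981 65.1 ± 26.6 and the intergenic Mir6236 61.0 ± 54.4, so these neighbours in the order did not differ beyond their spread. Mir1983 and Mir5099, also intergenic in the GENCODE annotation, had 53.2 ± 7.66 and 45.4 ± 23.5 CPM. Mir1198 in an intron of Gripap1 and Mir6538 in an intron of Rnf144a, a ubiquitin ligase gene, had 32.0 ± 8.56 and 22.5 ± 2.02 CPM. Mir1249, Mir1198, Mir8112 and Mir6538 did not pass the test between libraries.

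The design allows one comparison, that of the libraries with each other. For each hairpin with 10 or more counts in at least 1 library, the split of its reads between the libraries was set against their TMM-scaled sizes in an exact binomial test (two-sided), with Benjamini-Hochberg adjustment over all tested hairpins. The test asks whether the libraries differ beyond counting error. It does not compare conditions, and for a difference between animals the smallest exact p that 2 samples allow is 0.5, and that only one-sided. Each log2 ratio divides replicate 2 by replicate 1, both as TMM-scaled CPM plus 1.

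Of 326 tested hairpins, 204 (62.6%) passed an adjusted p of 0.05, with 118 (36.2%) higher and 86 (26.4%) lower in replicate 2. Of 52 tested late-named hairpins, 19 (36.5%) passed, with 6 (11.5%) higher and 13 (25.0%) lower. With a difference of at least 1.5-fold as well, 128 (39.3%) of all and 15 (28.8%) of the late-named hairpins passed, split into 65 higher and 63 lower for all and 5 higher and 10 lower for the late-named. With DESeq2 size factors, the late-named split at 1.5-fold was 7 higher and 8 lower, against 71 higher and 56 lower among all 326 tested. The power of the test depends on the counts, which were lower for the late-named hairpins (the scatter plot of both libraries). The median log2 ratio of the 52 was -0.24, with 20 above 0 and 32 below, and that of all 326 was 0.09. The split depends on scaling: with DESeq2 size factors 8 late-named hairpins were higher and 11 lower (all tested, 125 and 80), and by total hairpin count 4 and 15 (all tested, 76 and 117). The median of all tested hairpins was 0.15 and -0.14 under these scalings, and that of the late-named ones -0.18 and -0.42.

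**Figure D5:**
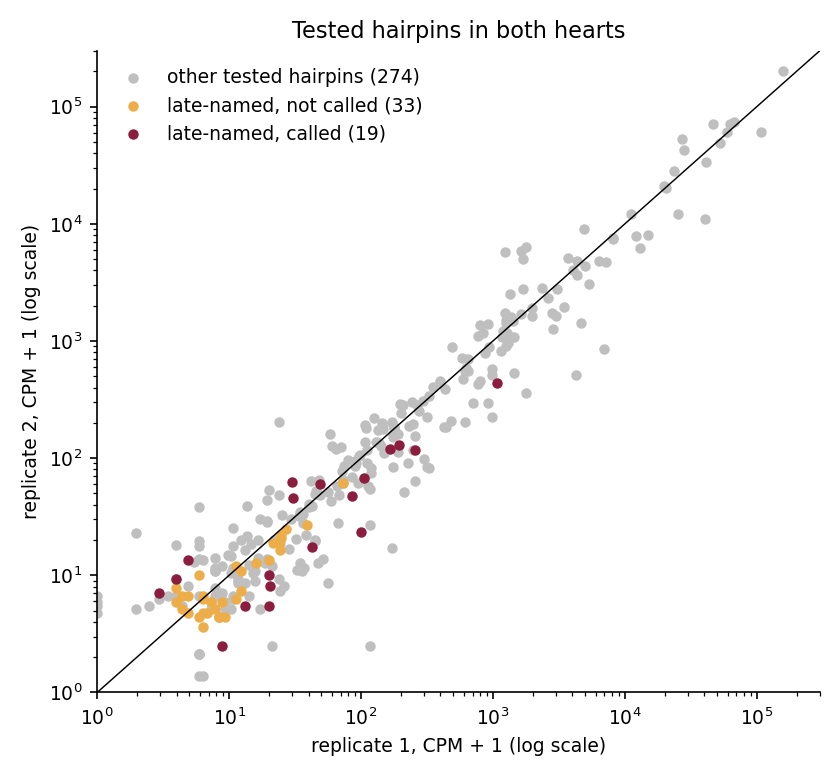
CPM plus 1 in replicate 1 (x axis, log scale) against replicate 2 (y axis, log scale) for the 326 tested hairpins, with the line of equal values. Gray points are other hairpins, orange points the 33 late-named hairpins that did not pass the test and dark red points the 19 that did. The late-named hairpins lie in the lower part of the range, and Mir1839 is their highest point, below the line.

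Among hairpins overlapping small RNA genes, 7 were tested, and 5 were lower and 0 higher in replicate 2, against 26.4% lower and 36.2% higher among all 326 tested hairpins. Mir1839 had a log2 ratio of -1.07 (exact 95% interval -1.18 to -0.97, adjusted p = 2.8e-98, binomial test). Mir1843b had -0.40 (-0.70 to -0.11, adjusted binomial p = 0.0112), Mir5121 -0.79 (-1.64 to -0.08, adjusted p = 0.0386) and Mir6516 -1.06 (-2.33 to -0.16, adjusted p = 0.0337). Mir1843a had -0.25 (-0.48 to -0.03, adjusted p = 0.0417). With DESeq2 size factors, Mir1843a and Mir5121 no longer passed the test (adjusted p = 0.134 and 0.0667). Mir3068 and Mir1949 did not pass it, at -0.35 and 0.97.

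Other late-named hairpins were lower in replicate 2 as well. Mir1306 in Dgcr8 had -0.89 (-1.10 to -0.69, adjusted binomial p = 5.56e-18), and Mir3058 in an intron of Nudt4, with 85 and 44 counts, had -1.05 (-1.66 to -0.55). Mir5113 in Tnrc6b had -1.66 (-2.92 to -0.88), and the intergenic Mir7688, with 40 and 19 counts, had -1.12 (-2.09 to -0.40). The intron-filling Mir3102 and Mir1981 had -0.36 (-0.58 to -0.15, adjusted binomial p = 0.00157) and -0.62 (-0.98 to -0.29, adjusted p = 5.06e-04). The lowest ratio among these was that of Mir6236, with 204 and 60 counts, at -1.87 (-2.35 to -1.49, adjusted binomial p = 2.6e-22).

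Hairpins higher in replicate 2 had at most 165 counts in a library. Mir5099, with 59 and 165 counts, had 1.31 (exact 95% interval 0.90 to 1.79, adjusted binomial p = 3.63e-10). Mir5100 in an intron of Mief2, a regulator of mitochondrial fission, had 8 and 33 counts and 1.65 (0.76 to 3.22, adjusted p = 5.6e-04). Mir3474 in an intron of Actr5, a gene of the INO80 chromatin remodeler, had 6 and 22 counts and 1.43 (0.38 to 3.32, adjusted p = 0.0127). Mir1983, with 98 and 156 counts, had 0.52 (0.15 to 0.90, adjusted p = 0.0088), but by total hairpin count its adjusted p was 0.162. The other two that passed with at least 1.5-fold had under 20 counts in each library: Mir6929 (16 and 4 counts, lower) and Mir1247 (4 and 16, higher). The hairpin of Mir5100 holds the letters TTCGANTCC, which 5 of 2202 hairpins (0.227%) hold on either strand and no other late-named hairpin described here. That motif, chosen after the values were seen, resembles the internal promoter box of tRNA genes, and the match is a description only.

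Mir3107, with 61 counts in replicate 1 and 118 in replicate 2, had 0.78 (0.35 to 1.28, adjusted binomial p = 6.74e-04). It lies at chr8:23142573-23142662 on the minus strand, in an intron of the noncoding gene Gm15816 and opposite Mir486, a hairpin abundant in red blood cells and muscle, with which it shares a run of 22 bases. Reads matching several places entered no hairpin count, and how many of them belong to Mir3107 and Mir486 was not tested. Mir486 had 2010 counts in replicate 1 and 1545 in replicate 2, with a log2 ratio of -0.52 (adjusted binomial p = 1.47e-26). The erythroid hairpin Mir144 had 664 and 218 counts, and Mir451a had 982 and 550. These hairpins went in the opposite direction from Mir3107. The smooth muscle hairpin Mir145a had 2534 and 15387 counts, the liver hairpin Mir122 47 and 540, and the epithelial hairpin Mir205 238 and 4. Mir200c, also epithelial, had 361 and 478 counts, or 176 and 180 CPM. The smooth muscle Mir143 had 28118 and 42505 CPM and the endothelial Mir126a 108082 and 60950. Of the heart muscle hairpins, Mir208a had 1620 and 5862 CPM, Mir208b 191 and 112, and Mir499 2629 and 2317. Several markers of heart muscle and of other tissues and cell types thus differed between the libraries, as did late-named hairpins. The part of these markers in the differences was not tested.

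The strand of the reads mattered for a few hairpins. In 4 of the 162, namely Mir3107, Mir3074-1, Mir3065 and Mir3544, another hairpin lies on the opposite strand, and these 4 stand at 0 when reads on either strand are counted. Mir3074-1, opposite Mir24-1 in Fancc, had 31 counts in each library on its own strand. Reads on the opposite strand of the other 158 late-named hairpins summed to 4 in replicate 1 and 5 in replicate 2.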

How the data were processed

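Counts of reads per hairpin, deposited without normalization, were read from the tables for 2 libraries. Reads were placed on mm10 with GENCODE M21, per the deposited text notes. The aligner and counter are not given in the sources used here. Only reads on the hairpin's own strand were used, and rows that name no hairpin stayed out. They held 14.1% and 11.5% of reads as unmapped, 38.5% and 41.6% as matching several places and 6.48% and 5.64% in no hairpin. From these counts, CPM was computed over all hairpin counts. Positions and overlapping genes came from GENCODE M21, and a hairpin was called exonic with more than 10 bases in an exon. Folding used RNAfold 2.7.2. The libraries were compared with exact binomial tests on TMM factors from the tested hairpins (edgeR 4.0.16, R 4.3.3, Python 3.11.15, scipy 1.17.1). The tests were run on simulated counts whose only noise was counting error, so that check did not cover other spread between libraries. DESeq2 1.42.0 size factors, total counts, other filters, pseudocounts and the unstranded column were alternatives.

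Members and lists were chosen with earlier results of these data known. Late-named hairpins within Sfmbt2 or at chr12:109700000-109760000 were left out, but earlier-named hairpins at these positions were kept. The hairpins named were the 15 with the highest mean CPM, those called with at least 1.5-fold and 20 counts in a library, and hairpins at splice sites or overlapping small RNA genes with at least 10 counts in each library. Further names were chosen after their values were seen.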

Additional observations from a re-analysis of the deposited data

Results flagged for a closer look

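Reads on the strand opposite a late-named hairpin do not enter its own counts. They were far above 0 at the 4 hairpins that face another hairpin. At each of these they equal the count of the facing hairpin, which was among all the hairpins tested above. At Mir3107, opposite Mir486, there were 2010 such reads in replicate 1 and 1545 in replicate 2. At Mir3074-1, opposite Mir24-1, there were 298 and 468. At Mir3065, opposite Mir338, there were 278 and 356, and at Mir3544, opposite Mir337, 264 and 360.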

How the results depend on the processing

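With at least 50 counts in a library, 10 of 16 tested late-named hairpins differed, 2 higher and 8 lower in replicate 2, with a median log2 ratio of -0.45; of all 223 tested, 165 differed, 74 higher and 91 lower, with a median of -0.07. The late-named median was -0.42 by total hairpin count and -0.13 with a pseudocount of 5 CPM. The share of hairpin counts was 0.307% from reads on either strand and 0.0911% of all reads. With reads on either strand the hairpin total was smaller. Mir1839 kept the same counts there, but its mean CPM went from 757 to 1073. With minimums of 5 and 20 counts in each library, 60 and 24 hairpins were detected. Among hairpins with 10 counts in each library, 9 of 37 were at splice sites, 10 in coding introns only and 6 in coding exons only. The shares moved too: splice sites from 42.0% to 24.3%, coding introns from 53.7% to 27.0%, and small RNA genes from 4.94% to 18.9%. The cause was not tested. Of 194 values under alternatives, 162 kept their direction and side of the threshold, or moved within the spread, 29 moved and 0 reversed. The remaining 3 no longer passed the test: Mir1843a and Mir5121 with DESeq2 size factors and Mir1983 by total count. Leaving out a library leaves 1, so the comparison has no such value. No paired analysis was possible because there is only 1 group. The alternatives added after seeing the data were TMM factors from all hairpins (19 late-named called, 6 higher and 13 lower, median -0.32, against 193 of all 326, 96 higher and 97 lower, median -0.02), the share without Mir1839, and an exon overlap of 1 base. Counts of 3 to 9 leave most hairpins without a usable comparison.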
